A study of Mus musculus with 5 samples.

Results

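The genes described are 7 long noncoding RNA genes grouped as nuclear-retained: Malat1, Neat1, Miat, Snhg11, Pvt1, Kcnq1ot1 and A930011O12Rik. Of these 7 genes, 6 had a row in the deposited expression files, among 34615 gene symbols, and all 6 were within the 16286 symbols with a mean of at least 1 FPKM that were tested. Kcnq1ot1 could be matched to no row with the annotation used, which leaves 785 identifiers unmatched, and is without a value here. The members were selected on a view of the WT and Ins2-AKITA FPKM values of these same 5 mice, so their genotype difference is given as a description, with no test. FPKM is the number of fragments of a gene divided by the length of its exons and by the mapped reads of the library.

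The data came from brain microvascular fragments of 3 WT and 2 heterozygous Ins2-AKITA mice, with 1 library per mouse. All mice were males on a C57BL6 background, aged between 26 and 38 weeks, and the WT mice were littermates of the mutants. Ins2-AKITA mice carry a mutated copy of the insulin 2 gene in every cell and become hyperglycemic because their pancreatic beta cells fail. Fragments were pulled out of digested brain tissue with beads against PECAM1, a surface protein of endothelial cells, and total RNA was depleted of ribosomal and transfer RNA before library preparation. Whether a transcript lay in the nucleus was not measured, since RNA was taken from whole fragments.

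Long noncoding RNAs of this kind act as RNA and are not translated. Malat1 gathers in nuclear speckles, the bodies where splicing factors are stored, and Neat1 is the scaffold around which paraspeckles form. Miat, also called Gomafu, makes a separate set of nuclear spots in neurons and binds splicing factors. Snhg11 hosts small nucleolar RNAs in its introns, A930011O12Rik hosts a copy of the neuronal microRNA miR-124, Pvt1 lies next to the growth regulator Myc, and Kcnq1ot1 silences genes of the Kcnq1 imprinted domain in cis.

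Malat1 (ENSMUSG00000092341) and Neat1 (ENSMUSG00000092274) are neighbours on chromosome 19 of assembly NCBIM37, both on the minus strand, from 5795690 to 5802671 and from 5824708 to 5845478. Malat1 and the long isoform of Neat1 lack a usual poly(A) tail. Their 3′ ends are cut by RNase P in front of a small tRNA-like RNA, and a triple helix of U-rich stretches with an A-rich tract protects the new end. The genomic sequences around this processing site are shown because they are a feature that these 2 genes share and the selection did not use. Capitals mark 5 runs of at least 8 letters that occur in both sequences in the same order, 58 of 186 bases in each. The sequences are read 5′ to 3′ on the minus strand of NCBIM37, at chr19:5795888-5796073 for Malat1 and chr19:5824621-5824806 for Neat1.
Malat1: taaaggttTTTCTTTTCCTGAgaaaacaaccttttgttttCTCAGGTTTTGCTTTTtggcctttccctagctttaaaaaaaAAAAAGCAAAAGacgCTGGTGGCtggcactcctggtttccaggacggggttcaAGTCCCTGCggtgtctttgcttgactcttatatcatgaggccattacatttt
Neat1: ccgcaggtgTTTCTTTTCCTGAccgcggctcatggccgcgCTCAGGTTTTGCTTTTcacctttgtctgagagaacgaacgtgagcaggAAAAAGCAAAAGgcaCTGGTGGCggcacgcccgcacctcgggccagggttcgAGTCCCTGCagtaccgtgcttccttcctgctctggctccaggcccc
The longest run, of 16 letters, and the first run, of 13 letters, are rich in T and stand for the U-rich stretches, and the run of 12 letters holds the A-rich tract. The annotated Malat1 gene ends past this site. The annotated Neat1 gene ends at it, so that the tRNA-like part lies outside the Neat1 row.

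Miat (ENSMUSG00000086878, chromosome 5, 112642248 to 112657968, minus strand) is known for repeats of UACUAAC, the letters of an intron branch point, through which it binds the splicing factor SF1. The 8760 exonic bases of its annotated model held TACTAAC 6 times, or 0.685 times per kilobase. Among 2029 other lincRNA and processed transcript genes with at least 1000 exonic bases, 6.01% held the motif at all and 27 were as dense or denser. The motif was found once in Neat1 and not in Malat1, Snhg11, Pvt1 or A930011O12Rik. It was searched on the transcribed strand only, and a match is a run of letters and not a binding site. The exon stretch with the most copies, 3 within 147 bases on the minus strand at chr5:112646339-112646485, is shown with the motif in capitals.
Miat: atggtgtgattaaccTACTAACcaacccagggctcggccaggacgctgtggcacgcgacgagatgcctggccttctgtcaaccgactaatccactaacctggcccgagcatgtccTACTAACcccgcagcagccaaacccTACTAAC

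Malat1 was at 2259.5 FPKM, 1880.45 FPKM and 756 FPKM in WT replicates 1, 2 and 3, and at 1757 FPKM and 949 FPKM in Ins2-AKITA replicates 1 and 2. The highest and the lowest value both belonged to WT mice, and both Ins2-AKITA values lay between them. The level of Malat1 was above that of 99.5% of the genes tested. Neat1 was at 55.6, 51.5 and 21.8 FPKM in the WT mice in the same order, and at 40.3 and 25.9 FPKM in the Ins2-AKITA mice. Its order over the 5 mice was that of Malat1, from WT replicate 1 at the top to WT replicate 3 at the bottom. The Neat1 row covers 20771 exonic bases and holds the short and the long isoform, which cannot be told apart in it.

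Miat was at 77.8, 64.3 and 30.0 FPKM in WT replicates 1, 2 and 3, and at 56.9 and 28.9 FPKM in the Ins2-AKITA mice. Here Ins2-AKITA replicate 2 was the lowest mouse, with WT replicate 3 just above it. Snhg11 (ENSMUSG00000044349, chromosome 2, 158201374 to 158211881, plus strand) was at 347, 248 and 117 FPKM in the WT mice and at 195 and 103 FPKM in the Ins2-AKITA mice. It had the widest range of the 6 genes, with the highest mouse 3.38-fold above the lowest. The annotation used lists Snhg11 as protein-coding, although it is known as a noncoding host gene.

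A930011O12Rik (ENSMUSG00000091456, chromosome 14, 65206952 to 65212796, plus strand) was at 65.5, 67.0 and 35.6 FPKM in WT replicates 1, 2 and 3, and at 60.7 and 23.9 FPKM in Ins2-AKITA replicates 1 and 2. Ins2-AKITA replicate 1 was near the upper WT mice, and replicate 2 was below every WT mouse. Pvt1 (ENSMUSG00000072566, chromosome 15, 61869542 to 62209651, plus strand) was at 5.22, 3.24 and 4.37 FPKM in the WT mice and at 5.27 and 4.85 FPKM in the Ins2-AKITA mice. It differed from the others in that WT replicate 2 was its lowest mouse and the highest mouse was only 1.62-fold above the lowest. The Pvt1 values rest on few fragments, an estimated 23.0 to 66.6 per mouse, against at least 118 per mouse for each of the other 5 genes.

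**Figure D1:**
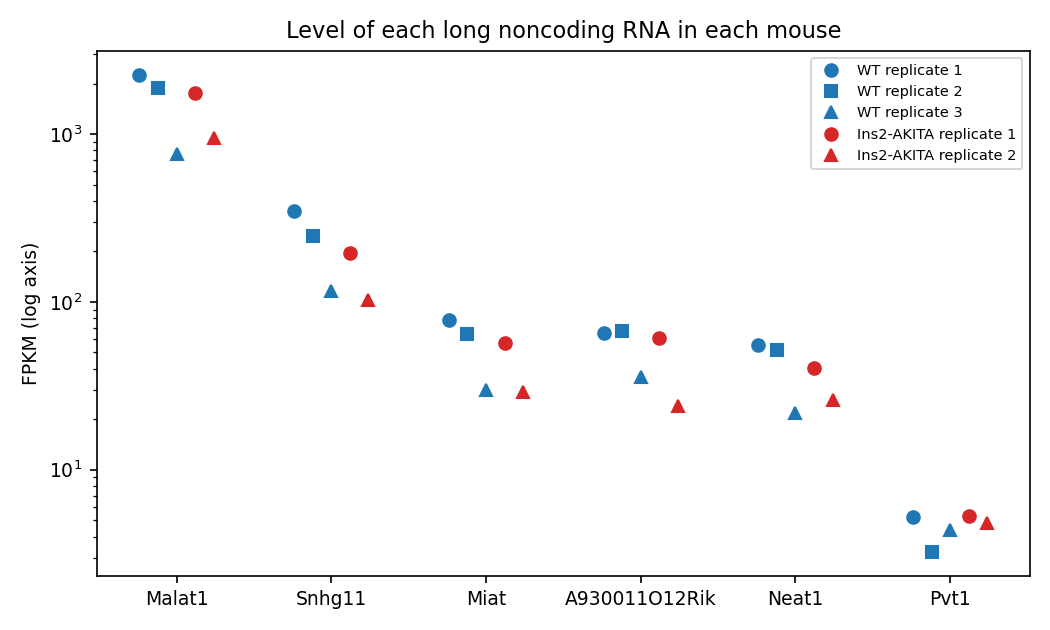
FPKM of each of the 6 long noncoding RNAs (log axis) in every mouse, with circles, squares and triangles for replicates of WT in blue and Ins2-AKITA in red; each point is 1 library. The red and the blue points overlap for every gene, and both triangles, WT replicate 3 and Ins2-AKITA replicate 2, are the lowest in all genes but Pvt1.

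Ordered by level per exon length, Malat1 stood above Snhg11 in 5 of 5 mice, with no overlap of their ranges, and Snhg11 stood above Miat in 5 of 5. Miat, A930011O12Rik and Neat1 came next with means of 51.6, 50.5 and 39.0 FPKM over the 5 mice. Their ranges overlapped, and Miat was above A930011O12Rik in 2 of 5 mice and A930011O12Rik above Neat1 in 4 of 5, so these neighbours were not separated. Pvt1, with a mean of 4.59 FPKM, was below Neat1 in 5 of 5 mice.

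The pattern that stood out ran across the genotypes. In 5 of the 6 genes, all except Pvt1, WT replicate 3 and Ins2-AKITA replicate 2 were the lowest 2 mice. The same arrangement was present in 18.8% of all genes tested, in 28.0% of the other lincRNA and processed transcript genes (320 of 1141) and in 18.0% of protein-coding genes (2499 of 13922). The arrangement was noticed in these genes and not chosen before, so the comparison with the other genes carries no test. With mice scaled to an equal protein-coding sum or by median ratios it was again present in 5 of 6 genes, and with quantile normalization in 4 of 6. With TPM, which sets the sum of all genes equal, it was present in 0 of 6 genes and in 0.54% of all genes tested.

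TPM depends on small RNA rows whose summed FPKM differed widely between mice. Small nucleolar RNA rows summed to 7769114 FPKM in WT replicate 1 and to 114357 FPKM in Ins2-AKITA replicate 2, whereas protein-coding rows summed to between 388375 and 421375 FPKM in all 5 mice. The estimated number of fragments was 2838232 in WT replicate 3 and between 1124742 and 1318623 in the other 4 mice, so 1 of the 2 low mice was the deepest and the other was not. Pseudogene rows summed to 1088745 FPKM in WT replicate 3 and 473010 FPKM in Ins2-AKITA replicate 2, against 9346 to 11207 FPKM in the other 3 mice. The part of these differences in the low long noncoding RNA values was not tested.

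Ratios between 2 genes of the same mouse do not depend on a factor by which that mouse is scaled. The ratio of Malat1 to Neat1 FPKM was 40.7, 36.5 and 34.6 in WT replicates 1, 2 and 3, and 43.6 and 36.6 in the Ins2-AKITA mice. Its SD over the 5 mice was 0.14 on the log2 scale, whereas Malat1 and Neat1 on their own had SDs of 0.68 and 0.58. The 2 genes kept nearly the same proportion while each moved by 2.55-fold or more. How many other gene pairs do so was not counted, and some protein-coding genes named below were closer to Malat1 in profile than Neat1 was.

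The ratio of Malat1 to Miat, which is on another chromosome, ranged from 25.2 to 32.9, with an SD of 0.14 on the log2 scale. Miat to Snhg11 ranged from 0.224 to 0.293, with an SD of 0.15, and the ratios of Malat1 and Neat1 to Snhg11 had SDs of 0.25 and 0.24. For A930011O12Rik the SDs ran from 0.23 with Miat to 0.34 with Malat1. Pvt1 did not keep a proportion to any of them: Malat1 to Pvt1 ranged from 173 in WT replicate 3 to 579.7 in WT replicate 2, with an SD of 0.74.

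**Figure D2:**
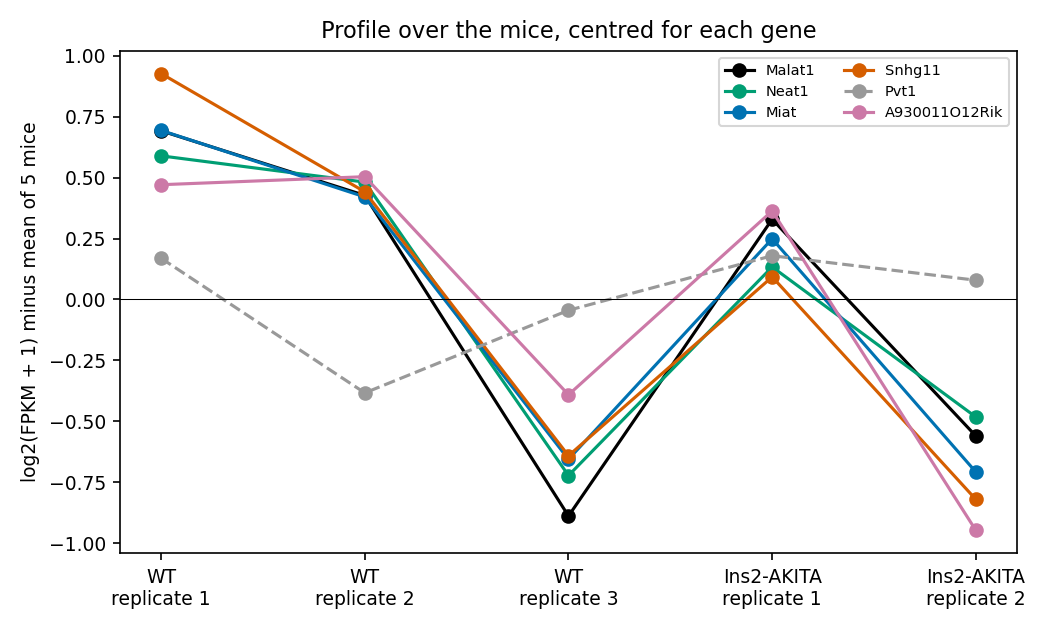
Each gene's log2(FPKM + 1) minus its mean over the 5 mice (vertical axis, log2 units) in each mouse (horizontal axis); lines join the values of 1 gene and Pvt1 is dashed. The 5 solid lines are below 0 in WT replicate 3 and Ins2-AKITA replicate 2 and above 0 in the other 3 mice, while Pvt1 runs between -0.38 and 0.18.

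The SD of Malat1 over the 5 mice was larger than that of 94.2% of the 4878 genes with a mean of at least 20 FPKM, and that of Snhg11 larger than 95.1%. Neat1, Miat and A930011O12Rik were above 91.0%, 93.1% and 93.1% of these genes. The median SD of such genes was 0.27 on the log2 scale. Over all genes tested the median SD was 0.38, these 5 genes stood between the percentiles 73.2 and 82.5, and Pvt1, with an SD of 0.23, was below the median. Because the members were selected on a view of these same values, the percentiles are a description and carry no test.

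Between genotypes, the mean of Malat1 was 1632 ± 782 FPKM (SD, n = 3) in WT and 1353 ± 572 FPKM (SD, n = 2) in Ins2-AKITA mice. The difference of the means of log2(FPKM + 1), Ins2-AKITA minus WT, was -0.19 with an SE of 0.54. It was smaller than its error, as was that of Neat1 at -0.29 (SE 0.44), of Miat at -0.38 (SE 0.47) and of Pvt1 at 0.22 (SE 0.32). Snhg11 had the largest difference, -0.61 (SE 0.50), from 237 ± 116 FPKM (SD, n = 3) in WT to 149 ± 64.8 FPKM (SD, n = 2) in Ins2-AKITA mice. A930011O12Rik differed by -0.49 (SE 0.46).

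The Ins2-AKITA values of all 6 genes overlapped those of WT. Both Ins2-AKITA mice lay below all WT mice in 10.3% of all genes tested and above all of them in 9.24%, and in 0 of the 6 long noncoding RNAs. Across all genes, limma with Benjamini-Hochberg adjustment at 0.05 called 0% higher and 0.0246% lower in Ins2-AKITA mice, the latter being 4 genes, with 0 of the 6 among them. At an unadjusted p under 0.05, limma had 1.53% of genes higher and 2.93% lower. The 4 called genes, named after their values were seen, were Snora47, SNORA13, Gm14889 and Gm17592, all listed at 0 in both Ins2-AKITA mice. Snora47 and SNORA13 are small nucleolar RNA genes, a class whose summed FPKM ran from 114357 to 7769114 over the mice. SNORA13 was at 5147 and 1320 FPKM in WT replicates 2 and 3, as was a SNORA71 row inside Snhg11. No number of fragments was estimated for the 4 genes, so their 0 values cannot be read as lost expression.

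The median difference of the 6 genes was -0.34 on the log2 scale, and that of all genes tested was -0.03. This median turned to 0.13 without Ins2-AKITA replicate 2 and was -0.75 without Ins2-AKITA replicate 1. With Ins2-AKITA replicate 1 as the only mutant, Malat1 differed from WT by 0.25, Neat1 by 0.02, Miat by 0.10 and A930011O12Rik by 0.17, and Snhg11 by -0.15. With Ins2-AKITA replicate 2 as the only mutant, the values were -0.64, -0.60, -0.86, -1.14 and -1.06 in the same order. Malat1 also turned to 0.12 without WT replicate 1.

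With both low mice left out, an alternative chosen after seeing the data, the differences were -0.23 for Malat1, -0.40 for Neat1, -0.31 for Miat, -0.59 for Snhg11, -0.12 for A930011O12Rik and 0.29 for Pvt1. That comparison holds 2 WT mice and 1 Ins2-AKITA mouse. With TPM all 6 differences were above 0, from 0.97 for Pvt1 to 1.54 for Malat1, while the median of all genes moved to 1.07. Relative to that median, TPM gave 0.47 for Malat1 and 0.03 for Snhg11, and -0.10 for Pvt1. TPM divided the FPKM of a mouse by a factor of 1.53 to 13.0 before 1 was added, which draws the differences of low genes toward 0. The values relative to the median therefore depend on the level of a gene and do not rank the genes by genotype difference.

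**Figure D3:**
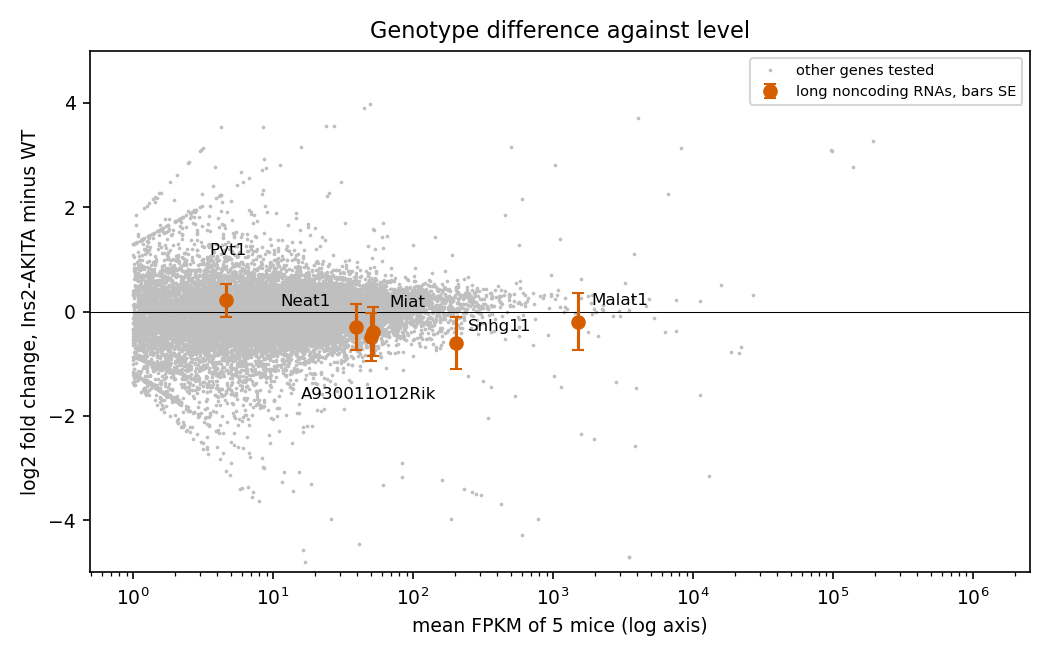
Difference of the mean log2(FPKM + 1), Ins2-AKITA minus WT (vertical axis), against the mean FPKM of the 5 mice (horizontal log axis) for the 16286 genes tested; orange points are the 6 long noncoding RNAs with their SE, and 43 genes beyond 5 log2 units are not drawn. In orange, 5 points lie below 0 and Pvt1 above it, and other genes are spread above and below at each level.

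**Figure D4:**
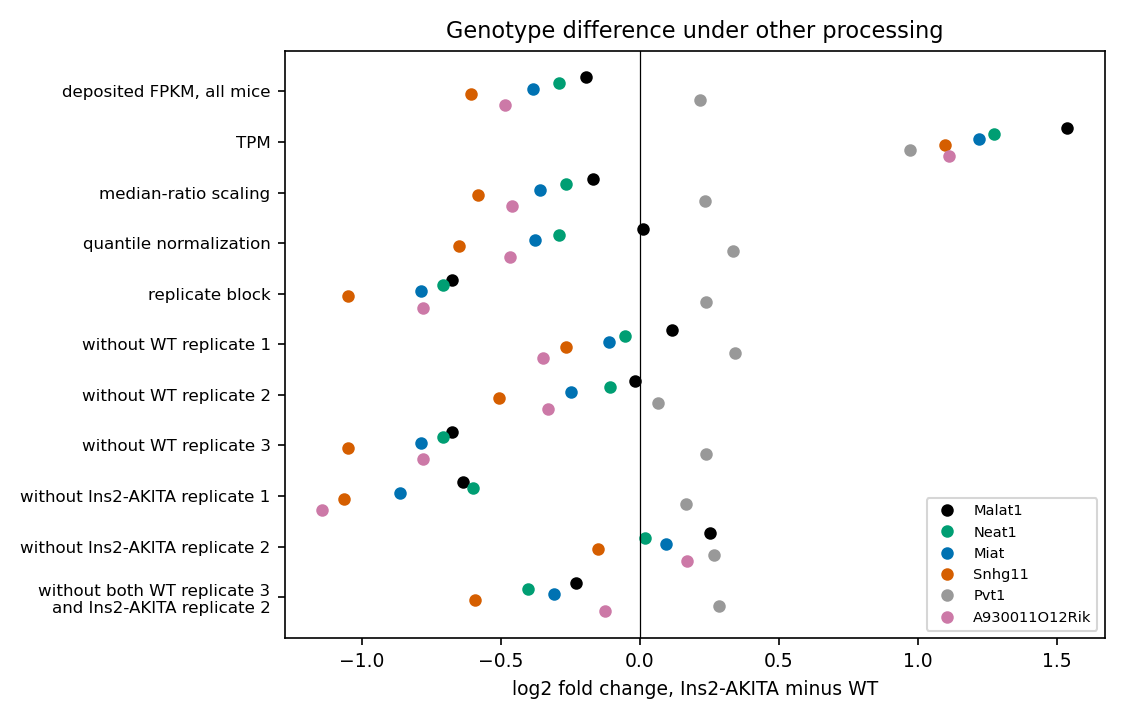
Difference of each long noncoding RNA, Ins2-AKITA minus WT on the log2 scale (horizontal axis), with the deposited values and under 10 other ways of processing (rows); each point is 1 gene. TPM puts all 6 genes above 0, and leaving out Ins2-AKITA replicate 2 puts all but Snhg11 above 0, whereas leaving out Ins2-AKITA replicate 1 leaves Pvt1 alone above 0.

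Genes that work with these RNAs were examined as lists. Of 31 nuclear speckle and splicing proteins, among which Malat1 is found in the nucleus, limma called 0 after adjustment (smallest adjusted p = 0.90) and had 0 at an unadjusted p under 0.05. Their median difference was -0.11 on the log2 scale. Pnn, a speckle protein that takes part in splicing, was at 40.4, 36.2 and 22.4 FPKM in the WT mice and at 23.8 and 20.1 FPKM in the Ins2-AKITA mice, a difference of -0.53. Srrm1, a splicing coactivator, differed by -0.52, and at the other end stood the splicing factor Srsf1 at 0.50 and the kinase Clk1, which phosphorylates such factors, at 0.49.

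In 19 of the 31 speckle genes WT replicate 3 and Ins2-AKITA replicate 2 were the lowest 2 mice, against 18.8% of all genes tested, and the count was 19 or 20 with 3 of the other scalings but 0 with TPM. Snrnp70, a protein of the U1 splicing particle, was at 173, 128 and 74.7 FPKM in WT replicates 1, 2 and 3, and at 127 and 55.3 FPKM in Ins2-AKITA replicates 1 and 2. Srsf11 was at 242, 228 and 119 FPKM and at 165 and 124 FPKM. Both were named after their values were seen, and both had the mouse arrangement of Malat1. SF1, the protein that binds the UACUAAC letters of Miat, was nearly level by its gene Sf1, with a difference of 0.01.

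Of 25 paraspeckle proteins, which assemble on Neat1, limma called 0 after adjustment (smallest adjusted p = 0.90) and had 0 at an unadjusted p under 0.05. The 3 core proteins Nono, Sfpq and Pspc1 differed by -0.11, -0.21 and 0.03, and Nono was at 53.7, 51.6 and 54.8 FPKM in the WT mice and at 52.2 and 46.6 FPKM in the Ins2-AKITA mice. The low value of Neat1 in WT replicate 3 had no counterpart in Nono. The extremes of the list were Smarca4, a chromatin remodeller, at -0.46 and Hnrnpr at -0.43, and Rbm12 at 0.71 and Nudt21, a polyadenylation factor, at 0.62. In 6 of these 25 genes the same 2 mice were lowest.

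**Figure D5:**
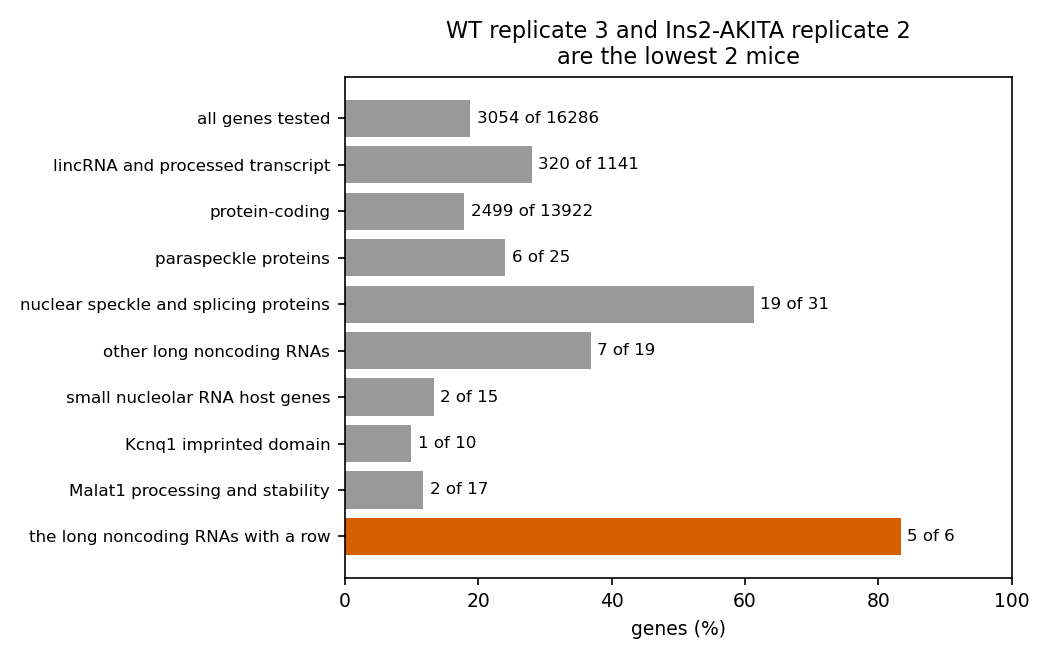
Share of genes (horizontal axis, percent) in which WT replicate 3 and Ins2-AKITA replicate 2 are the lowest 2 mice, for all genes tested, for 2 gene classes, for the 6 lists and for the 6 long noncoding RNAs (orange), with the counts beside the bars. The orange bar stands at 5 of 6 genes, nuclear speckle and splicing proteins at 19 of 31 and all genes at 3054 of 16286.

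Among other long noncoding RNAs, 19 of 30 listed were tested and limma called 0 after adjustment (smallest adjusted p = 0.90), with 0 at an unadjusted p under 0.05. Meg3, a maternally expressed RNA of the Dlk1 imprinted domain, was at 1421 FPKM in WT replicate 1 and at 599 FPKM in WT replicate 3, and at 932 and 553 FPKM in the Ins2-AKITA mice. It was one of 7 genes of this list with the same 2 mice lowest, and was named after its values were seen. The extremes of the list were Nespas at -1.14 and 2700023E23Rik, now called Dancr, at -0.81, and 2610017I09Rik, now called Pantr1, at 0.97 and Six3os1 at 0.39. Pantr1 ran the other way over the mice, at 30.4, 25.8 and 74.4 FPKM in WT replicates 1, 2 and 3, and at 48.3 and 124 FPKM in Ins2-AKITA replicates 1 and 2. The mice that were lowest for Malat1 were the highest for Pantr1.

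Of 22 small nucleolar RNA host genes, the class of Snhg11, 15 were tested, and limma called 0 after adjustment (smallest adjusted p = 0.90), with 0 at an unadjusted p under 0.05. Their median difference was -0.02 and the same 2 mice were lowest in 2 of 15, or 13.3%, near the 18.8% of all genes tested. Snhg3 was listed at 0 in Ins2-AKITA replicate 2 and between 7.28 and 11.6 FPKM in the other 4 mice. Snhg7 was at 8.71, 9.06 and 2.66 FPKM in the WT mice and at 2.97 and 1.46 FPKM in the Ins2-AKITA mice. At the other end were Snhg1 at 0.47 and the translation factor Eif4a2 at 0.21 on the log2 scale.

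Kcnq1ot1 itself was matched to no row, but 10 of 15 genes of its imprinted domain were tested. Of these, limma called 0 after adjustment (smallest adjusted p = 0.90), and 3 were lower at an unadjusted p under 0.05, Kcnq1, Tssc4 and Osbpl5, against 2.93% of all genes tested. Differences were below 0 in 9 of the 10, against 8718 of all 16286 genes tested. Some of the 9 were low, such as Th and Tspan32, both listed at 0 in Ins2-AKITA replicate 1 and Tspan32 also in WT replicate 3. The median of the 10 was -0.76, which was -0.25 with the filter at a mean FPKM of 5 and -0.37 with no filter. TPM gave a median of 0.74, or -0.33 relative to the shifted median of all genes, a value that depends on the low levels of these genes under TPM. Kcnq1, a potassium channel gene, was at 3.84, 3.50 and 1.85 FPKM in the WT mice and at 0.374 and 1.21 FPKM in the Ins2-AKITA mice. Tssc4 was at 13.8, 13.5 and 9.80 FPKM and at 6.50 and 4.13 FPKM. In both genes the Ins2-AKITA mice lay below all WT mice, as in 10.3% of all genes tested. Cd81, a membrane protein, differed by -0.10, and Dhcr7, a cholesterol synthesis enzyme, by 0.38.

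The list of Malat1 processing and stability held RNase P subunits, RNase Z, proteins that add or read m6A, and also Drosha and Dgcr8. Of its 18 genes, 17 were tested. Limma called 0 after adjustment (smallest adjusted p = 0.90). The RNase P subunits Pop5 and Pop7 were lower at an unadjusted p under 0.05, against 2.93% of all genes tested. Pop5 was at 25.0, 23.2 and 18.7 FPKM in the WT mice and at 12.8 and 9.76 FPKM in the Ins2-AKITA mice, a difference of -0.92, and Pop7 differed by -1.06. Other subunits lay at the opposite end, with Rpp30 at 0.83 and Pop1 at 0.73. The 2 mice that were lowest for Malat1 were lowest in 2 of these 17 genes.

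Around the genes, Gm20417 overlaps Malat1 on the opposite strand and was at 159, 150 and 57.0 FPKM in the WT mice and at 194 and 111 FPKM in the Ins2-AKITA mice. The libraries kept strand, but whether counting used it is not given in the sources used here, so its reads cannot be told apart from those of Malat1. Neat1 has Gm9783 on its far side, listed at 0 in every mouse.

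Next to Pvt1 lies Myc, which was at 2.43, 6.54 and 3.48 FPKM in the WT mice and at 0.576 and 0.506 FPKM in the Ins2-AKITA mice. Both Ins2-AKITA mice were below all WT mice, with a difference of -1.66 (SE 0.49), which did not pass in limma after adjustment (adjusted p = 0.90). The Myc values of the Ins2-AKITA mice correspond to an estimated 1.62 fragments each, and the same order of the genotypes was present in 10.3% of all genes tested. The Pvt1 values showed no such order. H2afy3, a pseudogene inside Pvt1 on the opposite strand, was at 4.18, 1.85 and 1.29 FPKM in the WT mice and at 1.62 FPKM and 0 in the Ins2-AKITA mice.

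Snhg11 is flanked by 9430008C03Rik, now called Snhg17, at 9.77, 6.13 and 3.13 FPKM in the WT mice and 6.22 and 2.00 FPKM in the Ins2-AKITA mice, with the mouse arrangement of Snhg11 itself. On its other side the pseudogene Gm14201 was listed at 0. Inside Snhg11 lie 2 SNORA71 rows, one listed at 0 in all mice and one between 1320 and 5147 FPKM, a row of only 133 bases whose FPKM rests on few fragments. Inside A930011O12Rik the microRNA rows Mir124a-1 and AC134898.1 were listed at 0 in every mouse. The libraries do not select small RNAs, but all microRNA rows together summed to between 453361 and 5273905 FPKM per mouse. The reason for the 0 values was not tested. Msra and Kif13b, the neighbours of A930011O12Rik, were at 11.5 to 26.3 FPKM and 13.1 to 26.5 FPKM. Of the genes next to Miat, the lens crystallin gene Cryba4 was listed at 0 in every mouse and E130006D01Rik in 3 of 5.

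The protein-coding genes with the most similar profile were found by the root mean square difference of centred log2(FPKM + 1) over the 5 mice, among 10463 genes with a mean of at least 5 FPKM. For Malat1 these were Gm17646 (0.07), the sodium-activated potassium channel Kcnt1 (0.08) and the zinc finger gene Zfp692 (0.10), against a median of 0.66 over all these genes. Zfp692 was also nearest to Miat (0.05), followed by the lysosomal transporter Spns1 (0.07) and the neural adhesion gene Opcml (0.08). Neat1 was nearest to Evc2, Csmd1 and Hook2 at 0.08 each.

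Snhg11 had no such close match, with A230050P20Rik, Bmp1 and Spns2 at 0.10, 0.11 and 0.11. A930011O12Rik was nearest to the autophagy gene Atg16l1 (0.03), which was at 51.4, 53.1 and 27.2 FPKM in the WT mice and 45.1 and 18.4 FPKM in the Ins2-AKITA mice, followed by Rnmtl1 (0.06) and Ccdc43 (0.08). Pvt1 was nearest to the endocytic gene Ehd3 (0.03), Gemin8 of the SMN complex (0.04) and Anxa4 (0.05). Among the 6 genes themselves the nearest pairs were Malat1 with Miat, Neat1 with Miat and Malat1 with Neat1, all at 0.13, and Pvt1 was between 0.58 and 0.70 from each of the others. The measure comes with no test.

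The tissue label was checked against markers, since Miat and A930011O12Rik are best known from neurons. All 10 endothelial markers were detected in every mouse, with a summed level of 518 to 896 FPKM in WT and 443 to 540 FPKM in Ins2-AKITA mice. The 11 neuronal markers, all detected in every mouse, summed to more, 2474 to 2895 FPKM in WT and 2693 to 3379 FPKM in Ins2-AKITA mice, so the fragments held RNA of neurons as well. Neuronal sums were highest in WT replicate 3 among WT mice and in Ins2-AKITA replicate 2 among the mutants, the mice with the lowest Malat1, Miat and A930011O12Rik. The sums are dominated by a few genes such as Camk2a, and of the 11 neuronal markers 6 were highest and 5 lowest in WT replicate 3 among the WT mice. Endothelial sums were the lowest of their genotype in the same mice, with 8 of the 10 markers lowest in WT replicate 3 among WT mice and 0 of 10 higher in Ins2-AKITA replicate 2 than in replicate 1. Both mice were the lowest 2 of all 5 in 3 of the 11 neuronal and 4 of the 10 endothelial markers.

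The 7 astrocyte markers summed to 2118 to 2927 FPKM in WT and 3338 to 3933 FPKM in Ins2-AKITA mice. All 7 were highest in WT replicate 3 among the WT mice, and 6 of 7 were higher in Ins2-AKITA replicate 2 than in replicate 1. The 10 mural markers summed to 424 to 503 FPKM in WT and 303 to 385 FPKM in Ins2-AKITA mice. Sums of the 7 oligodendrocyte markers (924 to 1197 FPKM and 967 to 1013 FPKM) and of the 7 microglial markers (102 to 145 FPKM and 108 to 116 FPKM) overlapped between genotypes. The 6 blood markers summed to 35.1 to 67.7 FPKM in WT and 25.2 to 32.4 FPKM in Ins2-AKITA mice, and 2 of them were listed at 0 in at least 1 mouse. No marker passed in limma after adjustment. At an unadjusted p under 0.05 limma had 2 endothelial, 3 mural and 1 blood marker lower and 1 astrocyte marker higher in Ins2-AKITA mice. Of all genes tested, 2.93% were lower and 1.53% higher at that level. Fewer cells of a type and less RNA per cell cannot be told apart in such fragments, and the part of cell makeup in the long noncoding RNA values was not tested. Ins2 was listed at 0 in all mice but WT replicate 3, at 1.51 FPKM, so the mutated gene could not serve as a check of the genotype labels.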

How the data were processed

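Libraries of 3 WT and 2 Ins2-AKITA mice were sequenced after depletion of ribosomal RNA. According to their methods, the authors mapped reads to NCBIM37 with TopHat2 2.0.4, removed duplicates with Picard 1.92 and tested with Cufflinks 2.2.1. Among the genes that the authors reported as lower in Ins2-AKITA mice were Miat, A930011O12Rik and Snrnp70, which limma did not call here. The Ins2-AKITA levels they printed for these genes are close to the deposited values of Ins2-AKITA replicate 2 alone (28.9, 23.9 and 55.3 FPKM). For Miat and A930011O12Rik the deposited means of both mutants are 42.9 and 42.3 FPKM. Their printed WT levels are close to the deposited WT means. The authors give 2 Ins2-AKITA mice, and the reason was not tested. The authors deposited 1 FPKM value per Ensembl identifier and mouse, and the program that made these values is not given in the sources used here. Removing duplicates can lower abundant genes such as Malat1.

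Identifiers were matched to the GENCODE annotation of NCBIM37 (37197 matched, 785 not) and rows of a symbol were summed. Those that averaged 1 FPKM or more over the mice (16286) went into limma 3.58.1 in R 4.3.3 as log2(FPKM + 1) (trend, two-sided, Benjamini-Hochberg at 0.05, genotype as the only factor). The fit was run on simulated data with independent noise and changes larger than those of the members. That setting does not cover a pattern over the mice that many genes share. Fold changes of log2(FPKM + 1) understate those of low genes. The sources name no litters or pairs, and the number of mice limits precision. Fragment numbers were estimated from steps between low FPKM values, of which 97.6% to 98.3% per mouse were whole multiples within 0.02. Other steps used Python 3.11.15, numpy 2.4.6 and pandas 2.3.3.

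The genes, lists and tests were chosen with earlier results of these data known. Named were all members, the 2 largest and 2 smallest differences in each list, the 3 most similar protein-coding genes, and overlapping or nearest genes, besides those said to be named after their values were seen. Not every neighbouring gene is reported here. Older symbols were matched for some listed genes, such as Sfrs18 for Pnisr. Alternatives were another pseudocount, other filters and scalings, a constant prior variance, a replicate block, the highest row per symbol, and each mouse left out.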

Additional observations from a re-analysis of the deposited data

How the results depend on the processing

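Counts of genes called by limma depended on the setting: against 0 genes higher and 4 lower with the deposited values, TPM gave 58 and 30, no filter 34 and 1, and a constant prior variance 1 and 2, while a filter at a mean FPKM of 5 gave 2 lower. Leaving out 1 mouse gave 0 to 10 higher, the most without Ins2-AKITA replicate 2, and 1 to 6 lower, and leaving out both WT replicate 3 and Ins2-AKITA replicate 2 gave 5 and 0. Where 1 Ins2-AKITA mouse was left, limma took it to vary like the others. None of the 6 long noncoding RNAs and none of the genes of the 6 lists was called under any of these. TPM turned the direction of Malat1 to 1.54, Neat1 to 1.27, Miat to 1.22, Snhg11 to 1.10 and A930011O12Rik to 1.11, of the median of the 6 long noncoding RNAs to 1.17, and of the list medians to 1.47 for paraspeckle proteins, 1.39 for nuclear speckle and splicing proteins, 1.17 for other long noncoding RNAs, 0.71 for small nucleolar RNA host genes and 0.74 for the Kcnq1 imprinted domain, on a shift of the median of all genes to 1.07. Quantile normalization turned Malat1 to 0.013, and it and median-ratio scaling turned the host gene median to 0.013 and 0.0019. Leaving out 1 mouse moved the difference of Malat1 from -0.67 to 0.25, Neat1 from -0.71 to 0.017, Miat from -0.86 to 0.10, A930011O12Rik from -1.14 to 0.17 and the median of the 6 from -0.75 to 0.13. Over the same mice the list medians ran from -0.091 to 0.023 for paraspeckle proteins, -0.29 to 0.045 for nuclear speckle and splicing proteins, -0.27 to 0.16 for other long noncoding RNAs, -0.29 to 0.10 for host genes and -0.05 to 0.13 for Malat1 processing and stability. Leaving out both low mice turned the medians of other long noncoding RNAs to 0.05 and of Malat1 processing and stability to -0.10. Snhg11 and Pvt1 kept their direction without each mouse. The filter at a mean FPKM of 5 moved the median of the Kcnq1 imprinted domain from -0.76 to -0.25. The causes of these changes were not tested.

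Both genotypes have replicates 1 and 2, but the labels do not pair them, so no pairing was assumed. The deviations of same-numbered mice from their genotype means correlated at 0.05 and -0.03. These values cannot show whether mice were paired, because the deviations of 2 Ins2-AKITA mice from their own mean mirror each other. With the replicate block, 0 genes were called higher and 5 lower, and the differences were -0.67 for Malat1, -0.71 for Neat1, -0.79 for Miat, -1.05 for Snhg11, -0.78 for A930011O12Rik and 0.24 for Pvt1, with a median of -0.74 over the 6. WT replicate 3 has no partner in that fit. The alternatives for Kcnq1ot1 were not run because it was matched to no row, and Pvt1 has no value with the filter at 5.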
